A study of Mus musculus with 8 samples.

Results

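The messenger RNAs of 56 genes that encode core parts of the spliceosome or SR proteins were examined in single hematopoietic stem cells (HSCs) of mice with a conditional allele of Med23, which encodes a subunit of the Mediator complex. Members were the genes of the table whose symbol begins with Srsf, Sfrs, Sf3a, Sf3b, Snrp or Prpf, or with Lsm and a number, together with U2af1 and U2af2. They made up 56 of 10720 genes: 9 Srsf, 3 Sf3a, 6 Sf3b, 10 Snrp, 13 Prpf, 13 Lsm and 2 U2af genes, and 0 with the older prefix Sfrs. Snrpf, Snrpn, Srsf4 and Srsf12 were not analysed here. Cells came from adult C57BL/6 mice. WT cells were from Mx1-cre-negative littermates homozygous for the conditional allele (Med23 L/L), and KO cells were from Med23 L/L mice with the Mx1-cre transgene, in which poly(I:C) injection induces Cre and deletes Med23. The Mx1 promoter responds to interferon and is not restricted to HSCs, and the sources do not state for the sequenced cells how long after injection they were taken or whether the control mice were injected. HSCs were sorted from bone marrow by the phenotype CD150+CD34-CD48- within the LSK gate (no lineage markers, Sca1 and c-Kit present) and picked by hand.

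The spliceosome removes introns from pre-mRNA and is built from small nuclear ribonucleoprotein particles (snRNPs). Each of the particles U1, U2, U4 and U5 holds a ring of Sm proteins around its RNA, while U6 carries a related ring of LSm proteins. U2AF recognises the 3' end of the intron, the SF3a and SF3b complexes hold U2 on the branch point, and many Prpf proteins work in the joined U4, U5 and U6 particle (the tri-snRNP) or later. SR proteins bind exonic sequences and help to define exons. In blood, SF3B1, SRSF2 and U2AF1 are known as genes recurrently mutated in myeloid neoplasms.

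Per the labels, 4 libraries were made for each genotype, but the columns of the table give the genotype and not the library, so all cells of a label formed 1 pool. There is therefore no replicate behind any of the differences described, and no p-value was computed. After removal of cells with under 2000 genes or under 20000 unique molecular identifiers (UMIs, each marking 1 captured RNA molecule), 493 of 586 cells remained, 259 labelled WT and 234 labelled KO, with 21475782 and 16180546 UMIs and medians of 59649 and 50281 UMIs per cell. Intervals in parentheses are exact 95% intervals. Those of ratios cover counting error only, not the spread between cells, mice or libraries. Those of shares of cells take the cells as independent and leave out the spread between mice or libraries. Members' counts varied between cells by more than counting error, so intervals of ratios are too narrow even for the sampling of cells. Med23 itself did not separate the labels: there were 122 UMIs in the WT-labelled pool and 117 in the KO-labelled pool, 5.68 and 7.23 UMIs per 1000000 UMIs of the pool (CPM), a log2 ratio of 0.35 (-0.03 to 0.73). The interval included 0 and the sign changed under 3 alternatives, so the groups are called by their labels throughout. The paper reports efficient loss of Med23 after poly(I:C), and whether counts taken at the 3' end can show the deletion was not tested. Of the 5 sort markers, Ly6a (Sca1) had 273 and 189 CPM, Kit 157 and 115 CPM and Cd48 6.80 and 5.25 CPM in the WT- and KO-labelled pools. Slamf1 (CD150) had 39.0 CPM in the WT-labelled pool and 8.16 CPM in the KO-labelled pool, and Cd34 had 178 and 304 CPM in spite of the CD34- gate. Of 16 other HSC markers, 9 were higher and 7 lower in the KO-labelled pool, with a median log2 ratio of 0.12.

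Transcripts of other cell types differed between the pools. All 22 measured oocyte genes were higher in the WT-labelled pool, with a sum of 2540 CPM against 49.4 CPM, and 65 WT-labelled cells and 2 labelled KO held over 1000 CPM of them. A list of 24 G2M-phase genes summed to 1597 CPM in the WT-labelled pool and 1050 CPM in the KO-labelled pool, with 21 of 24 lower in the latter, and 20 S-phase genes to 2065 and 1897 CPM. Other lists were sparse. Erythroid genes (2 of 8 in the table) summed to 31.3 CPM in WT and 9.33 CPM in KO, neutrophil genes (2 of 9) to 23.6 and 11.4 CPM, macrophage genes (2 of 9) to 32.0 and 59.1 CPM, and stromal and endothelial genes (6 of 9) to 81.8 and 102 CPM. Of the last, 4 of 6 were lower in the KO-labelled pool, with a median log2 ratio of -1.84 and Col1a1 at 16.1 and 0.247 CPM, while Pecam1 and Emcn were higher. For many of the members described, values without the cells rich in oocyte or G2M transcripts are given where they change the call or the sign. The part of these cells in the results was otherwise not tested. A sum alone does not separate fewer cells expressing a gene from less RNA per cell. For the oocyte and G2M lists, however, the number of cells rich in the transcripts differed between the labels. Oocyte-rich cells numbered 65 and 2, as given above. With cells thinned to an equal number of UMIs, 98 WT-labelled and 44 KO-labelled cells held 10 or more G2M UMIs. The median cell then held 6 G2M UMIs in WT and 3 in KO. Whether the RNA per expressing cell also differed was not tested.

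As a group, the spliceosome and SR protein genes were slightly lower in the KO-labelled pool. Together they took 1.12% of all UMIs in the WT-labelled pool (11152 CPM) and 1.01% in the KO-labelled pool (10132 CPM), a log2 ratio of -0.14 (-0.15 to -0.13). The ratio of single members was below 1 for 36 of 56 genes (64.3%) and above 1 for 20 (35.7%), whereas 48.1% of all 10720 genes had a ratio below 1 and 51.9% above 1. The median log2 ratio was -0.14 for the members and 0.02 for all genes, with quartiles of -0.33 and 0.07 for the members and -0.33 and 0.40 for all genes. Few members moved far. A ratio of at least 1.5 in the KO direction was found for 2 members, Lsm14a and Lsm14b (3.57%, against 17.2% of all genes), and a ratio at least as far below 1 for 4 members, Snrpa1, Lsm11, Sf3a2 and U2af1 (7.14%, against 15.5% of all genes). Members were more abundant than most genes, with a median of 126 CPM over both pools against 27.0 CPM for all genes, and low counts scatter more. Among the 2786 genes at or above the members' lower quartile of 64.7 CPM, 12.0% were past 1.5-fold in either direction, and 2 of 42 members at that level (4.76%) were. The median log2 ratio of these genes was -0.0017, with quartiles of -0.21 and 0.24.

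**Figure D1:**
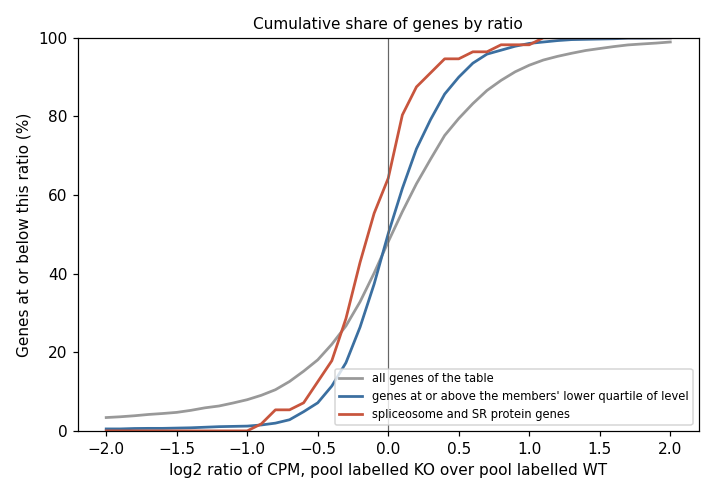
Cumulative percent of genes at or below each log2 ratio of CPM (x axis; KO-labelled pool over WT-labelled pool) for the 56 members, for the 2786 genes at or above the members' lower quartile of level, and for all 10720 genes. At a log2 ratio of 0, the curve of the members stands at 64.3% and that of all genes at 48.1%.

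The summed level stayed lower in the KO-labelled pool under every alternative tried, with log2 ratios from -0.33 to -0.086. The lowest value came from the authors' normalized values, which also moved the median of all genes from 0.02 to -0.14. Relative to the median of all genes, the members' median was -0.16 in the pooled CPM and -0.15 in the normalized values. The value nearest 0 came from leaving out the 98 WT-labelled cells and 44 labelled KO with 10 or more G2M UMIs after thinning to 20000 UMIs per cell. Direction was the same under all 9 alternatives for 33 of 56 members, so a small ratio of a single gene is given below as a value and not as a change.

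Levels ranged from 5.85 CPM (Lsm14b) to 817 CPM (Snrpg) over both pools. Since 1 UMI stands for 1 molecule captured at its 3' end, counts do not scale with transcript length and can be set side by side between genes, apart from differences in capture. The Sm ring (2913 CPM from 6 genes in the WT-labelled pool) and the SR proteins (2495 CPM from 9) were the most abundant roles, followed by SF3a and SF3b (1689 CPM) and LSm1 to LSm8 (1657 CPM). The tri-snRNP Prpf genes gave 913 CPM, the other U1 and U2 proteins 614 CPM, and U2AF 315 CPM. In the KO-labelled pool the SR proteins (2388 CPM) stood next to the Sm ring (2411 CPM).

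**Figure D2:**
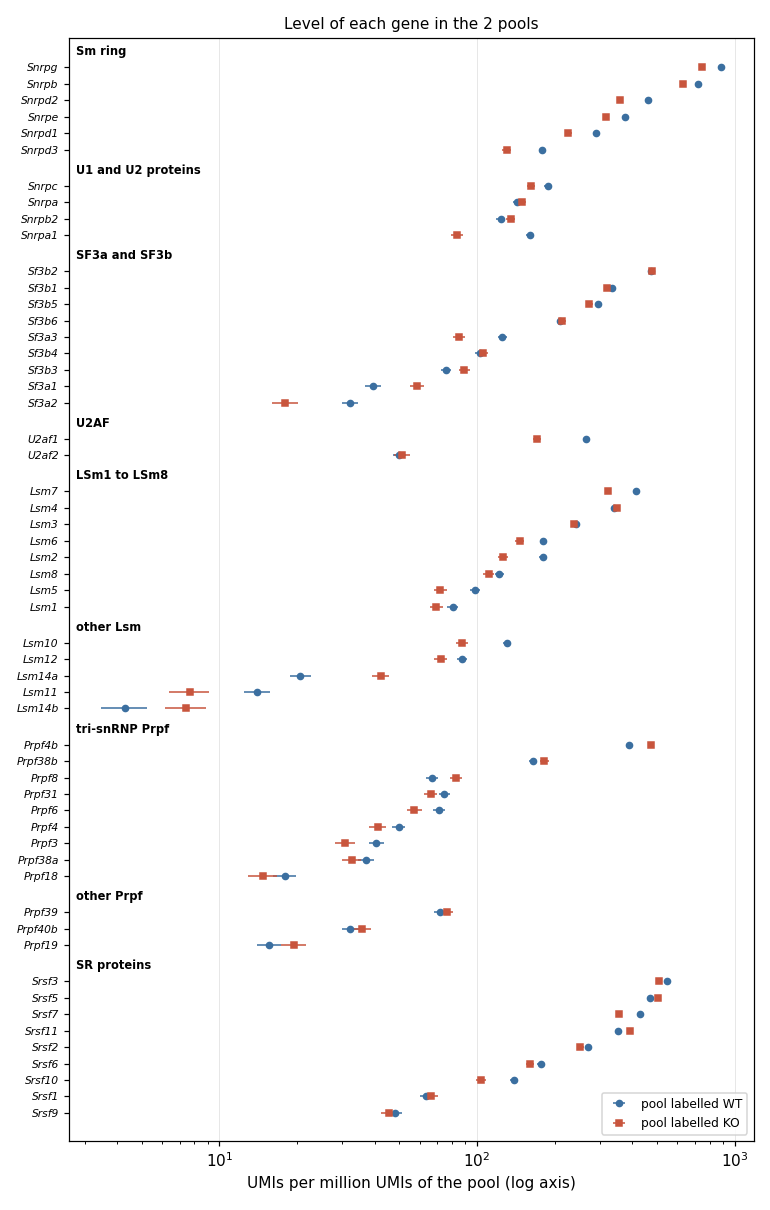
UMIs per 1000000 UMIs of the pool (x axis, log scale) for 55 of the 56 genes, grouped by role and ordered by level, in the WT-labelled pool (circles) and the KO-labelled pool (squares), with exact Poisson intervals. Snrpg stands highest in both pools, at 884 and 749 CPM, and the circles and squares of Snrpa1 and U2af1 lie well apart.

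The Sm ring, the protein core that is loaded onto the U1, U2, U4 and U5 RNAs in the cytoplasm, was lower in the KO-labelled pool in all 6 measured genes. Its sum was 2913 CPM in the WT-labelled pool and 2411 CPM in the KO-labelled pool, a log2 ratio of -0.27 (-0.29 to -0.25). Snrpg, encoding SmG, had 18981 UMIs in WT and 12123 in KO (884 and 749 CPM, log2 ratio -0.24, -0.27 to -0.21). Snrpb, encoding SmB, had 15503 and 10193 UMIs (722 and 630 CPM, log2 ratio -0.20, -0.23 to -0.16). The other members of the ring, described with their values in view, had log2 ratios of -0.24 (Snrpe), -0.36 (Snrpd1), -0.37 (Snrpd2) and -0.46 (Snrpd3). The composition of the ring's mRNA hardly differed, since Snrpg gave 30.3% of its UMIs in WT and 31.1% in KO, and Snrpb 24.8% and 26.1%. All 6 ratios remained below 1 under each alternative except for Snrpb without the G2M-rich cells, where the log2 ratio was 0.0035. Without these cells Snrpe stood at -0.04 and Snrpd2 at -0.11, while Snrpg (-0.27), Snrpd1 (-0.26) and Snrpd3 (-0.53) stayed lower. The sum then stood at -0.16, against -0.45 in the normalized values.

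Because the Sm genes were lower together, proximal promoters are shown for the 4 with a matched promoter sequence, which leaves out Snrpb and Snrpd1. They are given as the 150 bases before the RefSeq start on build GRCm38.p6, 5' to 3' on the strand of the gene. Capitals mark the letters searched on both strands. These were CCAAT (the CCAAT box), CCGGAA (found in many ETS factor sites), GGGCGG (the GC box) and GCATGC (the core of NRF1 sites). TATAAA (the TATA box) and CACGTG (the E-box) were searched as well. Shorter or other forms of these sites were not searched.

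Snrpg, chr6:86371390-86371539, strand +: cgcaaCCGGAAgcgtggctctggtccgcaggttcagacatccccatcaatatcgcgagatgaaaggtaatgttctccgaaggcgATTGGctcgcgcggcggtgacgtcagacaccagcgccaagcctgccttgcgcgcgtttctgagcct
Snrpd2, chr7:19149688-19149837, strand +: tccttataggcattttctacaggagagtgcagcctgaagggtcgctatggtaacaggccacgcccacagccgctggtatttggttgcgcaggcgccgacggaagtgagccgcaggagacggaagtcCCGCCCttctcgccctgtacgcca
Snrpe, chr1:133610281-133610430, strand -: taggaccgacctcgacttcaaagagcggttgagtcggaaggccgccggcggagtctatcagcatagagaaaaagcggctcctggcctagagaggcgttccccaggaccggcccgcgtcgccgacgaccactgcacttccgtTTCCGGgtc
Snrpd3, chr10:75517892-75518041, strand +: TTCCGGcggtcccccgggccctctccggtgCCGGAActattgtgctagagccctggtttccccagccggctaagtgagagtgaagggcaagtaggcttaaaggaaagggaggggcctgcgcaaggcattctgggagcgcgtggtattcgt

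In these stretches CCGGAA was found in Snrpg, Snrpe and Snrpd3, a GC box in Snrpd2 and a CCAAT box in Snrpg, and TATAAA in 0 of the 4. Promoter windows of 300 bases (250 before and 50 after the start) were matched for 46 of 56 members. CCGGAA was present for 52.2% of these members, against 14.9% of all 32851 promoters, GGGCGG for 71.7% against 35.7%, CCAAT for 43.5% against 37.4%, GCATGC for 15.2% against 7.9%, TATAAA for 8.7% against 13.6% and CACGTG for 8.7% against 7.2%. The median GC content was 60.3% in the members' windows and 52.7% in all. Members with several windows counted once if any held the motif, whereas all promoters were counted singly. The latter cover 27025 genes, whether measured here or not, so the shares are not strictly alike. Promoters of other genes at the members' level were not searched apart. Among the 29 matched members with a ratio below 1, CCGGAA was present for 14, GGGCGG for 21 and CCAAT for 12. Among all 46 matched members the numbers were 24, 33 and 20. These matches describe sequence and were not tested against the expression values.

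Among the proteins particular to U1 and U2, the gene with the largest difference was Snrpa1, which encodes the A' protein of the U2 snRNP. It had 3438 UMIs in the WT-labelled pool and 1351 in the KO-labelled pool, or 160 and 83.5 CPM, a log2 ratio of -0.94 (-1.03 to -0.85). Its ratio stayed below 1 under all 9 alternatives, from -1.02 to -0.52, but ended inside 1.5-fold when cells were thinned to 20000 UMIs, which weights cells equally. A UMI of Snrpa1 was detected in 54.8% (48.5% to 61.0%) of thinned WT-labelled cells and 46.2% (39.6% to 52.8%) of KO-labelled cells. Snrpb2, whose product B'' is the partner of A' on the U2 RNA, had 124 CPM in WT and 135 CPM in KO (log2 ratio 0.13), with a value of -0.23 in the normalized values and -0.04 without G2M-rich cells. The difference between these partners was not tested. Snrpc, encoding the C protein of U1, had 188 and 162 CPM (log2 ratio -0.22, -0.29 to -0.14). Snrpa, encoding the A protein of U1, had 142 and 149 CPM (log2 ratio 0.07, -0.01 to 0.15), and -0.21 in the normalized values. The sum of the 4 genes had a log2 ratio of -0.21 (-0.25 to -0.17), or -0.10 with thinned cells. Snrpa1 made up 26.1% of the UMIs in this sum in WT and 15.8% in KO.

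In the pooled CPM of all kept cells, U2AF showed a similar split between partners. U2af1, encoding the small subunit that reads the AG at the end of the intron, had 5698 UMIs in the WT-labelled pool and 2770 in the KO-labelled pool (265 and 171 CPM), a log2 ratio of -0.63 (-0.70 to -0.57). Of cells thinned to 20000 UMIs, 79.2% (73.7% to 83.9%) of WT-labelled cells and 65.8% (59.3% to 71.9%) of KO-labelled cells held a U2af1 UMI. Zp3, an oocyte gene foreign to blood cells, was seen in 44.8% and 8.12% of the same thinned cells, with 95.2% of its WT UMIs in the oocyte-rich cells. The origin of these UMIs was not tested. U2af2, encoding the large subunit that binds the polypyrimidine tract, had 1073 and 827 UMIs (50.0 and 51.1 CPM, log2 ratio 0.03, -0.10 to 0.16). It stood at -0.06 in the normalized values and -0.03 without oocyte-rich cells. Without G2M-rich cells both partners were lower, U2af2 at -0.13 and U2af1 at -0.27. U2af1 made up 84.2% of the pair's UMIs in WT and 77.0% in KO. The ratio of U2af1 was inside 1.5-fold when cells were thinned (-0.54) and moved to -0.27 without the G2M-rich cells, and -0.80 was found in the normalized values.

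The promoters of these genes are given in the same form. That of U2af1 is 1 of 2 windows in the RefSeq table.

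U2af1, chr17:31658765-31658914, strand -: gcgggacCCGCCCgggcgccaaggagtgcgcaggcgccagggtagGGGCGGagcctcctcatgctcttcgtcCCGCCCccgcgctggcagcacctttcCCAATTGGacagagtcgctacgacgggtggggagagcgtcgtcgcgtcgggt
Snrpa1, chr7:66060186-66060335, strand +: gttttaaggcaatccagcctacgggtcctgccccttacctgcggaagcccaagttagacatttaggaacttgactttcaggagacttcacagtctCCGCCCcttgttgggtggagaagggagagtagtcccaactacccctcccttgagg

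Both stretches held GC boxes, and that of U2af1 had overlapping CCAAT boxes on the 2 strands. Neither held the letters CCGGAA found in the stretches of Snrpg, Snrpe and Snrpd3.

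SF3a and SF3b, which clamp the U2 snRNP to the branch point, were nearly equal in sum, with 1689 CPM in the WT-labelled pool and 1641 CPM in the KO-labelled pool (log2 ratio -0.04, -0.06 to -0.02), and the sum reversed to 0.10 without the G2M-rich cells. Sf3b2 was the most abundant, with 10191 and 7745 UMIs (475 and 479 CPM, log2 ratio 0.01, -0.03 to 0.06). Sf3b1, encoding the largest SF3b subunit, had 7193 and 5189 UMIs (335 and 321 CPM, log2 ratio -0.06, -0.11 to -0.01) and was detected in 86.9% and 88.9% of thinned cells. The ratios of both genes crossed 1 under some alternatives, with Sf3b1 at 0.03 without G2M-rich cells and Sf3b2 at -0.03 without oocyte-rich cells. Sf3a2 was lower in the KO-labelled pool, with 690 UMIs in WT and 291 in KO (32.1 and 18.0 CPM, log2 ratio -0.84, -1.04 to -0.64). Thinning moved it to -0.38, inside 1.5-fold, and leaving out G2M-rich cells to -1.18. Sf3a3 was also lower (125 and 84.8 CPM, log2 ratio -0.57), but stood at -0.02 without the G2M-rich cells. Sf3a1 was higher, with 848 and 946 UMIs (39.5 and 58.5 CPM, log2 ratio 0.57, 0.43 to 0.70). A single cell held 21.5% of its UMIs in the KO-labelled pool, without which the ratio was 0.25, and thinning reversed it to -0.20.

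The LSm proteins form the ring on U6 (LSm2 to LSm8) and, with LSm1 in place of LSm8, a cytoplasmic ring that acts in mRNA decay. Of their 8 genes, 7 had ratios below 1, but 5 did with thinned cells and without oocyte-rich cells. The sums were of 1657 CPM in WT and 1435 CPM in KO (log2 ratio -0.21, -0.23 to -0.18) and values of -0.43 to -0.16 over the alternatives. Lsm7, the most abundant, had 8886 and 5209 UMIs (414 and 322 CPM, log2 ratio -0.36, -0.41 to -0.31). Lsm3 (log2 ratio -0.01, -0.08 to 0.05) and Lsm4 (341 and 349 CPM, log2 ratio 0.03, -0.02 to 0.08) had intervals that included 0. The ratio of Lsm3 was above 1 under 4 alternatives, with log2 ratios of 0.07 without oocyte-rich cells and 0.09 without G2M-rich cells among them. That of Lsm4 was below 1 in the normalized values and at the stricter cell minimum. Lsm2, chosen here after its values were seen, had 180 and 127 CPM (log2 ratio -0.50), and its UMIs were found in 68.0% (61.9% to 73.6%) of thinned WT-labelled cells and 47.0% (40.5% to 53.6%) of KO-labelled cells. The genes particular to each ring, Lsm8 of the U6 ring and Lsm1 of the decay ring, had log2 ratios of -0.14 and -0.21, of which that of Lsm1 turned to 0.04 when cells were thinned and to 0.01 without oocyte-rich cells.

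Lsm genes outside these rings gave the widest values of all roles. LSM10 and LSM11 replace Sm proteins in the U7 snRNP, which trims the 3' ends of histone mRNAs and is not part of the spliceosome. Lsm10 had 2800 UMIs in the WT-labelled pool and 1417 in the KO-labelled pool (130 and 87.6 CPM, log2 ratio -0.57, -0.67 to -0.48), with values from -0.98 to -0.44 over the alternatives. Lsm11 had 301 and 124 UMIs (14.0 and 7.66 CPM, log2 ratio -0.87, -1.18 to -0.56). Thinning brought Lsm11 to -0.35, leaving out oocyte-rich cells to -0.40 and leaving out G2M-rich cells to -0.57, all inside 1.5-fold. Lsm14a, encoding an RNA-binding protein of cytoplasmic P-bodies, was the member with the highest ratio, with 442 UMIs in WT and 684 in KO (20.6 and 42.3 CPM, log2 ratio 1.04, 0.86 to 1.21). Its values over the alternatives lay between 0.68 and 1.39, and its UMIs were detected in 19.3% (14.7% to 24.6%) and 29.9% (24.1% to 36.2%) of thinned cells. Its paralog Lsm14b had few molecules, 92 in WT and 120 in KO (4.28 and 7.42 CPM, log2 ratio 0.79), and 1 cell held 40.8% of those in KO, without which the ratio was 0.04. Lsm12 had 87.4 and 72.2 CPM (log2 ratio -0.28, -0.38 to -0.17).

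The promoters of the pair that serves the U7 snRNP and of Lsm14a are shown for comparison with those of the Sm genes.

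Lsm10, chr4:126096503-126096652, strand +: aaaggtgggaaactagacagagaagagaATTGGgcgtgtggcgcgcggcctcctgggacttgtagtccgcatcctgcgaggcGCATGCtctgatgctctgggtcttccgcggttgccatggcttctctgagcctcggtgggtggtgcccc
Lsm11, chr11:45944936-45945085, strand -: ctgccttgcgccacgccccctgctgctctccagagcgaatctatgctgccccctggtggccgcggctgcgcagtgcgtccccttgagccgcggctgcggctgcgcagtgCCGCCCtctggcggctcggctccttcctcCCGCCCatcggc
Lsm14a, chr7:34389706-34389855, strand -: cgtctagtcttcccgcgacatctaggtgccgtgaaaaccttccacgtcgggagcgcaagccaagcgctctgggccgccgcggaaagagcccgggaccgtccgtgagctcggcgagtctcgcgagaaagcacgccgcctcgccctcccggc

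None of these 3 stretches held CCGGAA. Lsm10 had a CCAAT box and the NRF1 core, Lsm11 a pair of GC boxes, and Lsm14a had 0 of the letters searched.

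**Figure D3:**
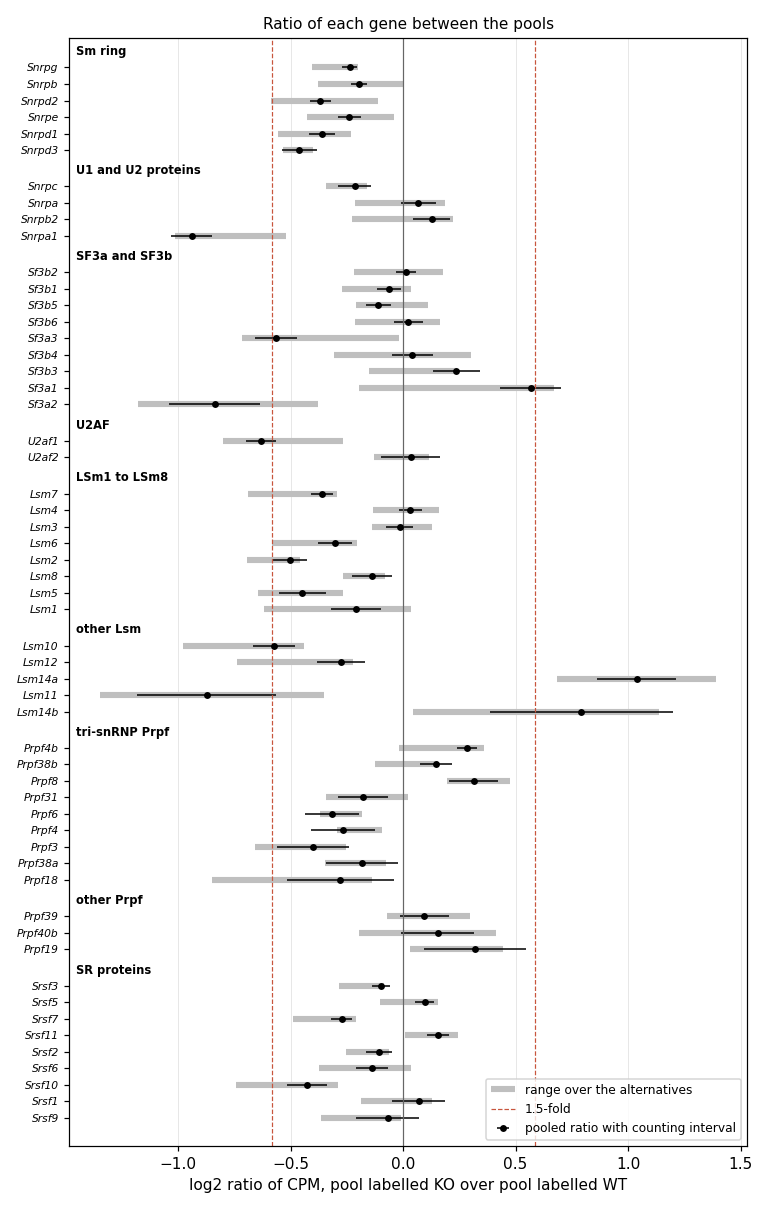
Log2 ratio of CPM of the KO-labelled pool over the WT-labelled pool (x axis) for 55 of the 56 genes by role, with the exact counting interval (black) and the range over the 9 alternatives (grey bars), and 1.5-fold in either direction (dashed). All 6 Sm genes lie left of 0, and Lsm14a, at 1.04, is the only gene shown whose range lies wholly to the right of 1.5-fold.

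Many Prpf proteins work in the tri-snRNP or in its activation. Of the 9 genes assigned to the tri-snRNP and its activation, 3 were higher and 6 lower in the KO-labelled pool, while their sum was higher, 913 CPM in WT and 983 CPM in KO (log2 ratio 0.11, 0.08 to 0.14), and reversed to -0.11 in the normalized values. Prpf4b, a kinase that phosphorylates spliceosomal proteins, gave 42.7% of this group's UMIs in WT and 48.3% in KO. Prpf4b had 8383 and 7684 UMIs (390 and 475 CPM, log2 ratio 0.28, 0.24 to 0.33), with -0.02 in the normalized values. Prpf8, the scaffold at the catalytic centre, had 1437 and 1345 UMIs (66.9 and 83.1 CPM, log2 ratio 0.31, 0.20 to 0.42), above 0 under all 9 alternatives, and was detected in 35.9% (30.1% to 42.1%) and 44.9% (38.4% to 51.5%) of thinned cells. Prpf38b had 165 and 183 CPM (log2 ratio 0.15), with -0.13 in the normalized values. The 6 lower genes, Prpf3, Prpf4, Prpf6, Prpf18, Prpf31 and Prpf38a, had log2 ratios from -0.40 (Prpf3) to -0.18 (Prpf31 and Prpf38a). Most of them are subunits of the U4/U6 and U5 particles. Without G2M-rich cells the log2 ratio of Prpf18 went from -0.28 to -0.85, past 1.5-fold. The log2 ratio of Prpf31 was 0.02 without G2M-rich cells. Its 3' end lies over an exon of Gm15927 on the opposite strand in GENCODE, and without knowledge of strand the reads of such a pair cannot be told apart.

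Outside the tri-snRNP, 3 of 4 Prpf genes had ratios above 1 and the sum was 298 CPM in the WT-labelled pool and 305 CPM in the KO-labelled pool (log2 ratio 0.03, -0.02 to 0.09), or -0.12 in the normalized values. Prpf19, a ubiquitin ligase that activates the spliceosome, had 334 and 314 UMIs (15.6 and 19.4 CPM, log2 ratio 0.32, 0.09 to 0.55) and stayed above 0 under every alternative. Prpf39, a U1-associated protein, had 71.7 and 76.6 CPM (log2 ratio 0.09, -0.01 to 0.20), or -0.02 and -0.07 without the cells rich in oocyte and in G2M transcripts, and its 3' end lies over an exon of Fkbp3 on the opposite strand. The interval of Prpf39 included 0.

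SR proteins, whose arginine and serine repeats recruit the splicing machinery to exons, differed little between the pools in sum, with 2495 CPM in WT and 2388 CPM in KO (log2 ratio -0.06, -0.08 to -0.04) and values of -0.25 to -0.045 over the alternatives. Ratios were above 1 for 3 of 9 and below 1 for 6. Srsf3 was the most abundant, with 11687 and 8228 UMIs (544 and 509 CPM, log2 ratio -0.10, -0.14 to -0.06). By symbol, Srsf3 was the 1 member with a pseudogene named after it in RefSeq, and how reads matching both were counted is not given in the sources used here. Srsf5 had 10122 and 8155 UMIs (471 and 504 CPM, log2 ratio 0.10, 0.05 to 0.14), with -0.10 in the normalized values and -0.02 and -0.01 without the cells rich in oocyte and in G2M transcripts. Srsf2 had 5806 and 4065 UMIs (270 and 251 CPM, log2 ratio -0.11, -0.16 to -0.05), was seen in 82.6% and 81.6% of thinned cells, and stayed below 0 under every alternative. The 3' end of Srsf2 lies over an exon of Mettl23 on the opposite strand. Of the genes named after their values were seen, Srsf10 and Srsf7 had the lowest ratios and Srsf11 the highest. Srsf10 had 139 and 104 CPM (log2 ratio -0.43), Srsf7 429 and 355 CPM (-0.27) and Srsf11 353 and 393 CPM (0.16). Each kept its direction under all 9 alternatives, and Srsf10 stood at -0.74, past 1.5-fold, without G2M-rich cells.

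**Figure D4:**
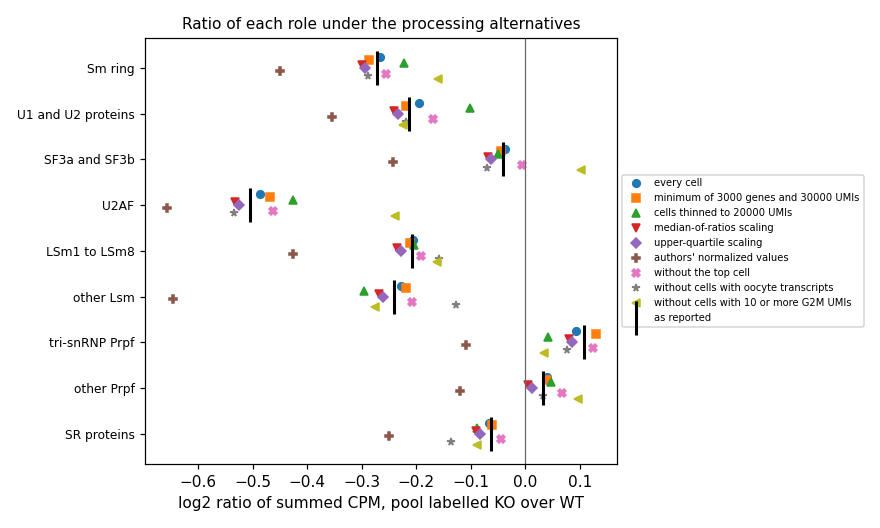
Log2 ratio of the summed CPM of each role (x axis; KO-labelled pool over WT-labelled pool) as reported (black bars) and under the 9 processing alternatives (symbols). The Sm ring lies between -0.45 and -0.16 and U2AF between -0.66 and -0.24, while SF3a and SF3b and both Prpf groups have symbols on both sides of 0.

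Single cells of the same label differed far more than the pools did. The summed level of the members ranged from 5810 to 19626 CPM in WT-labelled cells, with a median of 10444 CPM, and from 4063 to 16785 CPM in KO-labelled cells, with a median of 9736 CPM. The ranges overlapped almost wholly. At 20000 UMIs per cell, a median of 33 members were detected in a cell labelled WT (17 to 47) and 32 in a cell labelled KO (18 to 45). Cells labelled WT held a median of 50 UMIs of the Sm ring and KO-labelled cells 44, while the SR proteins gave 47 and 45 and the LSm genes 28 and 24. The median was the same in both labels for the U1 and U2 proteins (10), the tri-snRNP Prpf genes (17) and the other Prpf genes (5). The variance of the thinned counts over their mean (the Fano factor) had a median of 5.16 over 51 members in WT and 4.74 in KO, close to 4.94 and 4.96 for all genes with a mean of at least 0.5 thinned UMI. Among members above that mean in the label, where the factor still depends on level, Sf3a2 (1.66 in WT) and Lsm5 (2.33 in KO) had the lowest values, and Lsm10 (8.52 in WT) and Prpf40b (12.0 in KO) the highest.

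**Figure D5:**
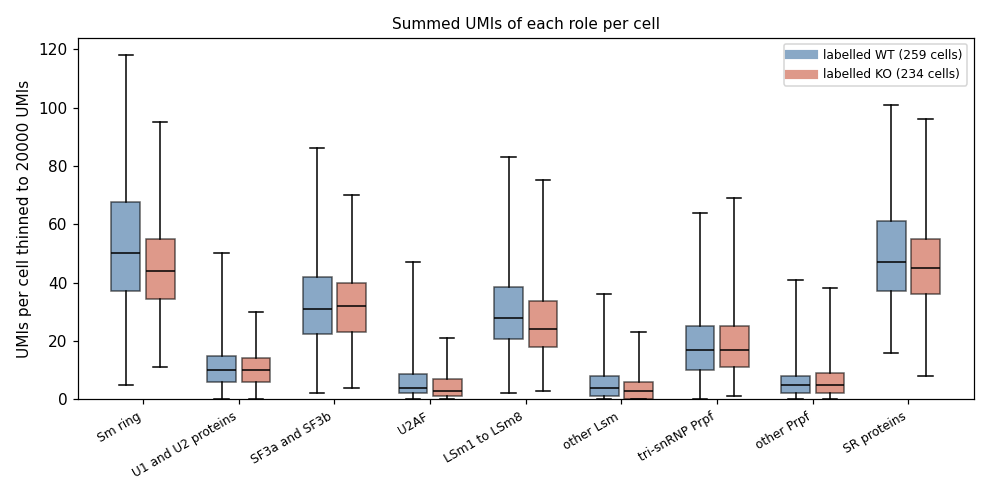
UMIs of each role per cell after thinning to 20000 UMIs (y axis) in 259 WT-labelled cells and 234 labelled KO; boxes give quartiles and median, whiskers the lowest and highest cell. The medians of the Sm ring are 50 and 44, and the boxes of the labels overlap in every role.

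Across cells of 1 label, the level of the members was compared with cell-cycle genes, as a description. Spearman's rho between the members' summed thinned UMIs and those of the S-phase list was 0.47 in 259 WT-labelled cells and 0.51 in 234 labelled KO, and against the G2M list 0.33 and 0.25. The cells of a label come from 4 libraries that could not be separated and differ in depth, and rho with the total UMIs of the cell before thinning was 0.26 and 0.22. By role, rho with the S-phase list was 0.41 and 0.35 for the Sm ring and 0.30 and 0.36 for the LSm genes, but 0.01 and 0.10 for the tri-snRNP Prpf genes. The SR proteins gave 0.19 and 0.32. The oocyte list had rho of -0.09 and 0.02 with all members and -0.23 and 0.05 with the SR proteins.

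The other genes of the pathway, 135 of 136 listed being in the table, were balanced between the pools. Of these, 66 were higher and 69 lower in the KO-labelled pool, with a median log2 ratio of -0.01 (all genes 0.02). A ratio of at least 1.5 was found for 4 upwards (17.2% of all genes) and for 9 downwards (15.5% of all genes). The lists for particle biogenesis and the tri-snRNP were mostly lower. In snRNP assembly (the SMN and Gemin proteins that load the Sm ring), 13 of 16 were lower, with a median of -0.21 and Gemin6 at 37.1 CPM in WT and 19.1 CPM in KO. In the non-Prpf proteins of U5 and the tri-snRNP, 9 of 11 were lower, with a median of -0.12, and among factors of U2 and the branch point 7 of 9 were lower, with a median of -0.14. The list of SR-like proteins and splicing regulators, by contrast, had 15 of 22 higher (median 0.12), with Rbm39 at 747 CPM in WT and 1009 CPM in KO, and 16 of 25 hnRNP genes were higher (median 0.04). Both medians turned below 0 in the authors' normalized values, to -0.09 and -0.07. The kinases that phosphorylate SR proteins were split, 4 higher and 3 lower, with Srpk1 at 160 CPM in WT and 99.6 CPM in KO. The lists for U1 and the minor spliceosome (6 of 10 higher), the Prp19 complex (7 of 14), DEAH and DEAD helicases (6 of 11) and the exon junction complex (5 of 10) were evenly divided or nearly so.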

How the data were processed

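Single HSCs were profiled by 3' RNA sequencing with UMIs. The authors aligned reads to the mm9 mouse transcriptome (build named in the submitters' processing notes), counted UMIs per gene, filtered cells and genes, and normalized; aligner and normalization method are not given in the sources used here. The deposited values are log2 of the normalized count plus 1. With the log2 undone, all values of a cell were whole multiples of 1 step, so UMI counts were recovered (100% whole within 0.01, largest distance 0.00312). Cells with at least 2000 genes and 20000 UMIs were kept, holding 20027 to 496293 UMIs. UMIs were summed per label and scaled to CPM. Ratios and shares have Clopper-Pearson intervals, CPM Poisson intervals; pooled counts under 3 were raised to 3. Members and lists were chosen with earlier results of these data known. Columns name no library, so the planned fallback without a test was used. 0 columns lacked a label. No doublet caller was run on these hand-picked cells.

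The genes named by rule were U2af1, U2af2, Sf3b1, Srsf2 and Prpf8, the 5 members with the largest ratio each way (mean of at least 0.5 UMI per cell), the 2 most abundant of each role, and Med23. The result of 1 gene named by this rule is not reported here. Other genes were chosen after their values were seen. The lists were 9 roles, pathway lists, HSC, sort, oocyte, neutrophil, macrophage, erythroid and stromal markers, and S and G2M genes. Alternatives were other cell filters, thinning to 20000 UMIs, upper-quartile and median-of-ratios scaling, the authors' normalized values, and leaving out the top cell of each gene, oocyte-rich cells (over 1000 CPM) or, added after seeing the data, G2M-rich cells. Promoters were from RefSeq (GRCm38.p6); the overlap of 500 bases at the 3' end was taken from GENCODE M21. A planned comparison of protein sequences was not run. Scripts were tested on simulated data (Python 3.11.15, numpy 2.4.6, scipy 1.17.1, pandas 2.3.3).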

Additional observations from a re-analysis of the deposited data

How the results depend on the processing

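No paired analysis was possible because neither a library nor a replicate number stands in the column names and no test was made; for the same reason no library could be left out. The log2 ratio of the summed level (-0.14) was -0.13 with thinned cells and when each gene's top cell was left out, -0.17 and -0.16 with median-of-ratios and upper-quartile scaling, -0.33 in the authors' normalized values, -0.16 without oocyte-rich cells and -0.086 without G2M-rich cells, the last chosen after seeing the data. The members at least 1.5-fold higher numbered 1 in place of 2 in the normalized values, without the top cell and among members above 1 UMI per cell. Those at least 1.5-fold lower numbered 1 in place of 4 with thinned cells and 13 in the normalized values. The 1 with thinned cells was Lsm10 (log2 ratio -0.75), while Snrpa1, Lsm11, Sf3a2 and U2af1 all lay inside 1.5-fold. The share of all genes past 1.5-fold is not given for the alternatives, and the median of all genes itself was -0.14 in the normalized values. These counts are therefore not read as a result about the members. The 6 members past 1.5-fold kept their direction under all 9 alternatives, and 14 of the 26 members named by rule did; the other 12 had ratios that crossed 1 under at least 1 alternative, all but Sf3a1 from log2 ratios of 0.28 (Prpf4b) or less in size. Med23 fell to -0.40 at the stricter cell minimum, -0.13 in the normalized values and -0.04 without its top cell. The cause of these shifts was not tested. Depth limits the low members: Lsm14b rests on 92 and 120 UMIs, and 54 of 56 members had a mean above 1 UMI per cell.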
